A study of Mus musculus with 8 samples.

Results

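The messages carried by polysomes in the brain of a mouse model of spinal muscular atrophy (SMA) were described from 2 ribosome profiling libraries, out of 8 libraries in the study. Each gene was represented by 1 protein-coding transcript, the one with the highest scaled count in these 2 libraries, which gave 21874 coding genes from 49617 protein-coding transcripts. Of these genes, 17103 had a read in at least 1 polysome library, 4771 had none, and 4595 had at least 100 reads in each. SMA follows from loss of the survival motor neuron protein SMN. The animals were of the Taiwanese line, congenic on FVB, with no functional mouse Smn gene and a human SMN2 transgene carrying 2 gene copies on 1 allele (Smn-/-; SMN2tg/0). Whole brain was taken at postnatal day 5, an early symptomatic age, and both polysome libraries are labelled as biological replicates. The other libraries were 2 RiboLace libraries, which capture ribosomes in active elongation, from brains of the same genotype and age, and 3 SMN immunoprecipitates with 1 IgG immunoprecipitate from brains of Smn+/-; SMN2tg/0 controls at the same age. All 8 libraries therefore come from animals that carry SMN2. Polysomes of control genotype were not analysed here, so no level below can be assigned to the disease, and brain was sampled in place of the spinal cord in which motor neurons are lost.

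In ribosome profiling, the stretch of message covered by a ribosome survives nuclease digestion and is sequenced as a footprint. Polysomes are messages with several ribosomes, separated here on a sucrose gradient, pooled and digested with RNase I. Because longer coding sequences hold more ribosomes at a given spacing, the density of footprints along the coding sequence describes how heavily a message is read, and the total number of footprints describes how much of the ribosome pool it occupies. Neither measure separates the abundance of a message from the number of ribosomes on each copy, since no total RNA library was analysed here. In a bulk brain sample, fewer cells of a type and less RNA per cell cannot be told apart either.

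The polysome libraries held 1677442 and 2312303 reads on the chosen coding transcripts, against 37816 to 236562 in the other 6. A read was found on 16089 and 16541 coding genes. Density is given as RPKM, reads per kilobase of coding sequence scaled to 1000000 coding reads, with the SD over both libraries (n = 2). The deposited table counts reads per transcript. Its treatment of reads with several matching transcripts is not stated in the labels or notes, so isoforms and near-identical genes such as tubulins, actins, histones, globins and calmodulins may share reads. Smn1, the deleted mouse gene, had 51 and 77 reads (35.1 RPKM, 95% Poisson interval 26.1 to 46.1, and 38.4 RPKM, 30.3 to 48.0). The 2 libraries are close to each other and their intervals overlap. These reads may come from the undeleted part of the gene or from the human transgene, so they do not check the genotype labels. Poisson intervals here and below cover counting error only.

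Markers of neurons, glia, vessels and blood all had reads. Among neuron markers, the tubulin gene Tubb3 and the growth cone gene Stmn2 stood at 1766 and 1543 RPKM and at 1610 and 1451 RPKM, and the synaptic gene Snap25 at 627 and 611 RPKM. The radial glia gene Fabp7 had 1170 and 1024 RPKM, the oligodendrocyte lineage gene Olig1 362 and 363, the microglial gene C1qa 130 and 107, and the endothelial gene Cldn5 230 and 195. These genes were the densest of their marker lists. Medians over all listed markers were 264 RPKM for neurons and 288 for astrocytes and radial glia. They were 54.2 RPKM for the oligodendrocyte lineage, 27.3 for microglia and 12.1 for endothelium and pericytes. The 4 choroid plexus markers had a median of 17.5 RPKM. Ttr stood at a mean of 2030 RPKM, but Clic6 at 21.3, Folr1 at 13.7 and Kl at 3.70. Spinal motor neuron markers had few reads: the homeobox gene Mnx1 had 0 in both libraries, Chat, the enzyme that makes acetylcholine, had 5 and 15, Isl1, a homeobox gene, had 15 and 29, and the choline transporter gene Slc5a7 had 44 and 69. Their median density of 6.34 RPKM was close to that of all coding genes. Among liver and muscle genes, Apoa2 had 0 reads in both libraries, Alb had 0 and 9, and Ckm had 4 and 3. The muscle actin gene Acta1 had 211 and 267 reads, and its coding sequence resembles those of the abundant cytoplasmic actins.

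Footprints were spread over many genes. The median density was 6.59 and 7.21 RPKM over all coding genes, and 90.2 and 90.6 RPKM over the 4595 genes with at least 100 reads in each library, whose mean densities ran from 2.55 to 2039 RPKM. The 10 genes with the most reads held 2.36% ± 0.187 (SD, n = 2) of coding reads, the top 100 held 10.9% ± 0.536 and the top 1000 held 40.2% ± 0.935. It took 1497 genes in replicate 1 and 1585 in replicate 2 to reach 50% of the reads.

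The 20 densest messages held 5 tubulins, 4 growth cone genes and 11 genes of other roles. The first was Gng3, a G protein gamma subunit of neurons, at 2175 and 1902 RPKM (2039 ± 193). Tubb2b, a beta-tubulin of young neurons, stood at 2197 and 1879 RPKM (2038 ± 225). Ttr, which encodes the thyroid hormone carrier transthyretin made by the choroid plexus, stood at 2131 and 1929 RPKM (2030 ± 143). Those 3 means lie within 1 SD of each other, so their order carries no information. Tubb2a followed at 2097 and 1808 RPKM and Calm3, a calmodulin gene, at 2035 and 1840 RPKM. In reads, Gng3 and Tubb2b had 3.65 and 3.69 footprints for each coding base in replicate 1, and 4.40 and 4.34 in the deeper replicate 2.

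Next in rank came Nrgn, the calmodulin-binding postsynaptic protein neurogranin, at 1854 and 1553 RPKM. The actin-monomer-binding thymosins Tmsb4x and Tmsb10 had 1784 and 1570 RPKM and 1638 and 1528 RPKM. Ptms, encoding the small acidic protein parathymosin, had 1716 and 1628 RPKM. These 4 genes have coding sequences of 135 to 306 bases. Tubb3 (given above), Tuba1a at 1764 and 1510 RPKM and Tubb5 at 1624 and 1425 RPKM brought the tubulins among the 20 densest to 5.

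Growth cone proteins made up a further group. Basp1, a membrane-associated growth cone protein, had 1684 and 1427 RPKM. Stmn2 (given above) and Stmn3, 2 stathmins that bind tubulin dimers, differed by less than their SDs, with means of 1530 ± 112 and 1464 ± 166 RPKM. Gpm6a, a neuronal membrane glycoprotein, had 1565 and 1460 RPKM. The last 4 were Cox8a, a subunit of cytochrome c oxidase, at 1459 and 1433 RPKM, the brain metallothionein Mt3 at 1460 and 1408 RPKM, Fxyd6, a regulator of the sodium pump, at 1483 and 1384 RPKM, and mt-Co1, the mitochondrially encoded cytochrome oxidase subunit, at 1403 and 1331 RPKM. Just outside the list stood the globin gene Hba-a1 (1363 ± 310 RPKM) and the actin regulator Marcksl1 (1329 ± 129 RPKM). The gap at the end of the list, from 1367 to 1363 RPKM, is far smaller than either SD.

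**Figure D1:**
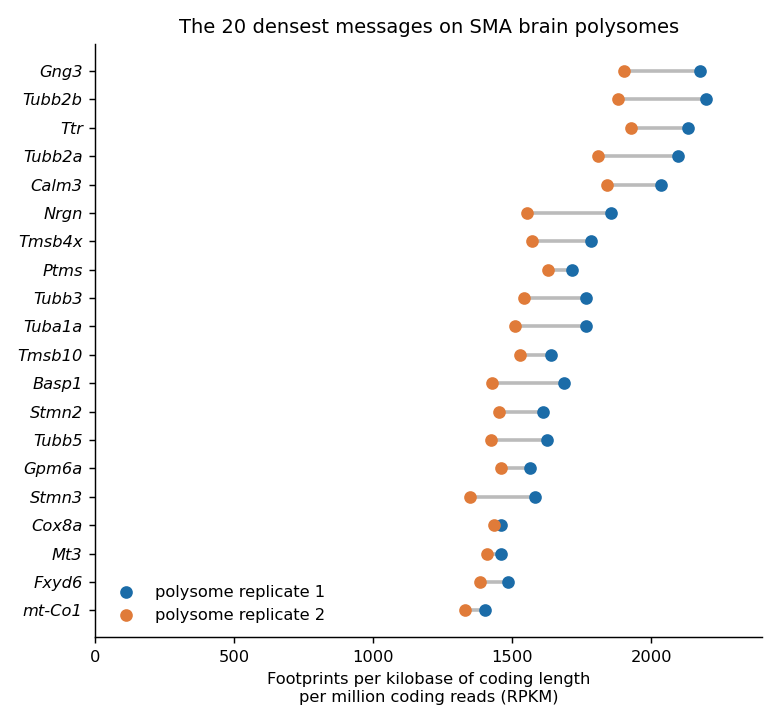
Footprint density (RPKM) of the 20 densest messages on SMA brain polysomes, with 1 point for each of the 2 libraries joined by a line. All 20 lie higher in replicate 1, from Gng3 at a mean of 2039 RPKM to mt-Co1 at 1367 RPKM.

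The median coding length of these 20 messages was 495 bases, with 14 under 1000 bases, against a median of 1425 bases over the 4595 genes. The 10 messages with the most reads formed a different list. None of these had a coding sequence under 1000 bases, their median was 1450.5 bases, and 6 of them were also among the 20 densest (4 beta-tubulins, Tuba1a and mt-Co1). The message with the most footprints was Map1b, the microtubule-associated protein of growing axons, with 6872 and 8820 reads on 7395 coding bases, or 554 and 516 RPKM, which placed it only 211th by density. Dpysl2, the growth cone protein CRMP2, had 3740 and 4658 reads and a density of 1234 ± 88.5 RPKM. Ncan, a proteoglycan of the brain matrix, had 3091 and 3990 reads, and App, the amyloid precursor protein, had 3105 and 3820. A message that ranked high by reads and low by density was Dync1h1, the heavy chain of cytoplasmic dynein, with 2552 and 2938 reads on 13935 coding bases: 18th by reads and 2135th by density, at 109 and 91.2 RPKM.

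The curve of density against rank was flat at the top. The 1st message was 2.57 times as dense as the 100th (792 RPKM), 3.72 times as dense as the 200th (549 RPKM) and 9.66 times as dense as the 1000th (211 RPKM). Within single libraries, the ratio of the 1st to the 100th was 2.74 and 2.52 in polysomes and 12.8 to 20.9 in the other 6 libraries, each ranked on its own genes with at least 10 reads. From the 10th to the 100th it was 2.14 and 2.01 in polysomes and 3.30 to 4.33 elsewhere. The 100 genes with the most reads in each library held 11.3% and 10.5% of coding reads in polysomes and 19.8% to 20.6% in the other 6. The other libraries are shallower, with 723 to 5341 genes at 10 reads or more against 12157 and 12963 in polysomes, and the part of depth in these ratios was not tested. A fixed set of genes, the 100 densest on polysomes, held 7.61% and 7.07% of polysome reads, 15.7% in each RiboLace library and 11.0% to 11.5% in the immunoprecipitates.

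**Figure D2:**
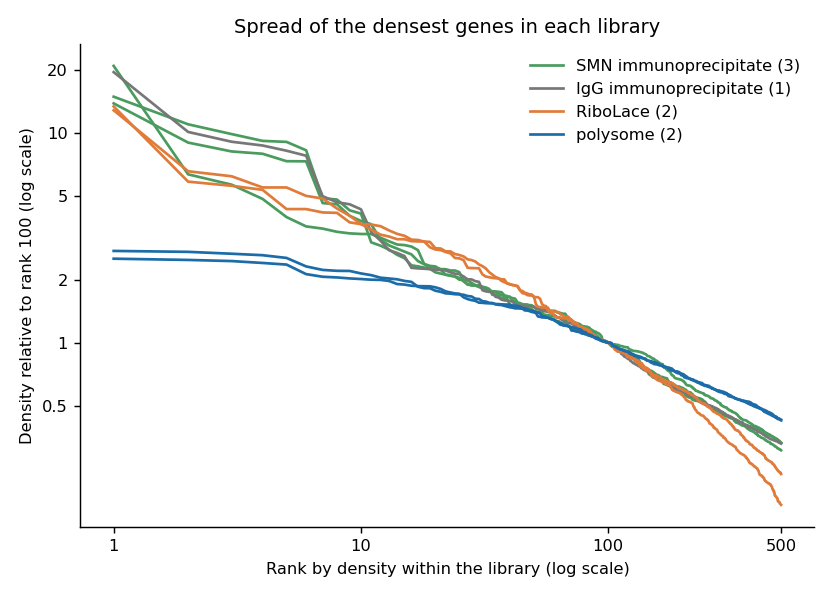
Density relative to the 100th gene (log scale) against rank by density (log scale) within each of the 8 libraries, 1 line per library. The 2 polysome curves start 2.74 and 2.52 times above their 100th gene, and the other 6 curves 12.8 to 20.9 times above theirs.

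Function classes were compared by their share of coding reads, using 21 lists with 920 genes in all, which held 20.8% ± 0.596 (SD, n = 2) of the reads and 201 of the 500 densest messages. These 500 were taken from the 4595 genes with at least 100 reads in each library. Coding length is the divisor of density, which favours lists of short proteins in such counts. The list with the largest share was that of growth cone genes. Growth cone and microtubule-associated proteins (30 genes) took 2.14% and 2.00% of coding reads, and tubulins (17 genes) took 1.86% and 1.63%. The tubulin share depends on how transcripts are treated: it was 1.12% when counts were summed over all coding transcripts of each gene, below splicing (1.60%), adhesion (1.46%), synaptic (1.44%), oxidative phosphorylation (1.37%), actin (1.33%) and large cytoskeletal genes (1.31%) counted in that way, while growth cone genes at 2.32% still had the largest share. Actins and actin-binding proteins (39 genes) took 1.16% and 1.07%. Large cytoskeletal proteins such as spectrins, dyneins, kinesins and plakins (33 genes) took 0.935% and 0.893%, with a median density of 22.4 RPKM against 423 for tubulins. Within that class the axonal kinesin Kif5c had 281 and 260 RPKM and the giant linker dystonin, Dst, had 2.71 and 2.39 RPKM, the lowest of the 4595 genes.

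Energy metabolism was spread over 4 lists. The 88 nuclear-encoded subunits and carriers of oxidative phosphorylation took 1.56% and 1.51% of coding reads. Of the 76 with at least 100 reads in each library, 38 were among the 500 densest messages. They included Cox8a, Ndufa4 (1379 and 1214 RPKM) and Cox6b1 (1240 and 1167 RPKM), while Ndufs1, the largest subunit of complex I, had 52.7 and 58.2 RPKM. The 13 mitochondrially encoded genes took 0.866% and 0.860% and had a median density of 693 RPKM, above the other 20 function classes when all members are counted and below the tubulins (1265 RPKM) when only members with at least 100 reads are, with mt-Co1, mt-Cytb (1193 and 1139 RPKM) and mt-Nd5 (813 and 889 RPKM) at the top. The 17 glycolytic genes took 0.459% and 0.464%, led by Pgam1 at 479 and 448 RPKM. The ion pumps took 0.777% and 0.773%, led by Atp1b1, the beta subunit of the sodium pump, at 966 and 926 RPKM.

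The machinery of gene expression took moderate shares. The 89 ribosomal protein genes held 1.02% and 0.917% of coding reads, with a median of 181 RPKM. Of the 67 with at least 100 reads in each library, 17 were among the 500 densest. Their densest members, Rpl8 (709 and 580 RPKM), Rplp1 (672 and 584 RPKM) and Rps29 (642 and 599 RPKM), differed from the synaptic gene Snap25 (619 ± 11.4) by less than their own SDs. The 69 translation factors held 1.22% and 1.16%, led by Eif1b at 753 and 709 RPKM and the elongation factors Eef1a2 (687 and 651 RPKM) and Eef1a1 (623 and 521 RPKM). Of the 43 with at least 100 reads in each library, the scaffold Eif4g1 had the lowest density, 14.9 and 17.1 RPKM. Splicing and hnRNP proteins held 1.21% and 1.15%, with Hnrnpa0 at 699 and 615 RPKM and the neuronal RNA-binding protein Elavl3 at 563 and 515 RPKM. The SMN complex with the Sm proteins, the ring of proteins that SMN loads onto spliceosomal RNA, took 0.206% and 0.203% over 23 genes, led by Snrpd2 (653 and 620 RPKM) and the brain-enriched Snrpn (545 and 552 RPKM). Histones, the DNA-packaging proteins, took 1.14% and 1.09% over 75 genes with a median of 331 RPKM. The 3 densest were near-identical H4 genes (Hist1h4h, Hist1h4d and Hist4h4, 713 to 792 RPKM), which may share reads. Chromatin regulators sat at the other end, with a median of 10.7 RPKM over all 43 members. The 27 with at least 100 reads in each library ran from Hdac2 at 159 and 148 RPKM to the methyltransferase Kmt2c at 4.34 and 4.56 RPKM. Kmt2c, with 107 and 155 reads, was near that minimum.

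Protein folding and turnover, and the synapse, had shares of similar size. Chaperones took 1.18% and 1.13%, led by Hsp90ab1 (618 and 585 RPKM). Ubiquitin and proteasome genes took 1.18% and 1.15%, led by the ubiquitin precursor Ubb (1110 and 1026 RPKM) and the neuronal hydrolase Uchl1 (1027 and 921 RPKM). Synaptic vesicle and release genes took 1.24% in each library, led by complexin Cplx2 (1007 and 927 RPKM) and the vesicle SNARE Vamp2 (905 and 865 RPKM). Receptors and channels took 0.571% and 0.573%, with a median of 40.5 RPKM; their densest member was the glutamate receptor Grm3 at 177 and 179 RPKM. Adhesion and axon guidance genes took 1.29% and 1.28% and extracellular matrix genes 0.723% and 0.786%, the last with a median of only 5.68 RPKM and with Sparcl1 at 800 and 790 RPKM. Cell cycle and progenitor genes took 0.454% and 0.434%, a list in which the tubulin Tuba1b alone had 1375 and 1190 RPKM.

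**Figure D3:**
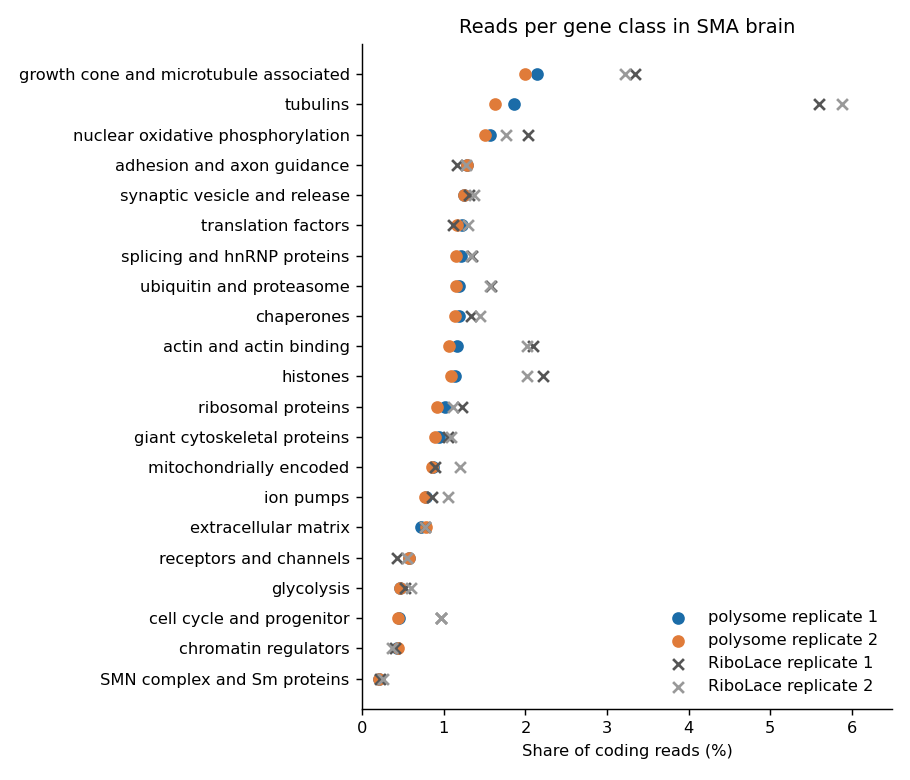
Share of coding reads (%) per function class in SMA brain, with points for each polysome and RiboLace library. The 2 polysome libraries differ most for tubulins (1.86% and 1.63%), which also stand furthest from RiboLace, at 1.74% against 5.74% on average.

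When classes were weighed by density in place of reads, those of short proteins gained. Nuclear oxidative phosphorylation held 3.53% of the density summed over all coding genes, histones 3.01%, ribosomal proteins 2.19%, tubulins 1.40%, large cytoskeletal proteins 0.169% and chromatin regulators 0.094%. The median coding length is 420 bases in the oxidative phosphorylation list and 7167 bases in the large cytoskeletal list.

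Footprint density fell with coding length among well-measured messages, and the relation depended on which genes were kept. Among the 4595 genes, the median density was 328 RPKM for coding sequences under 500 bases, 157 RPKM from 500 up to 1000, 83.6 RPKM from 1000 up to 2000, 44.2 RPKM from 2000 up to 4000 and 22.1 RPKM from 4000 bases up. Spearman's rho of density with coding length was -0.77 across these genes, and that of read number with coding length was 0.018. Length is the divisor of the density, and a minimum of 100 reads removes short genes of low density, so both values carry that construction. With every gene that had a read (17103), rho was -0.23, and over all 21874 genes it was 0.045. The rho of read number with coding length moved the other way over the same sets, to 0.13 and 0.27. Medians over genes with a read kept the same order as under the minimum of 100 reads, from 39.6 RPKM under 500 bases to 6.38 RPKM from 4000 bases up. Over all genes, including those without reads, the order was lost: 5.83 RPKM under 500 bases, 1.60 from 500 up to 1000, 9.77 from 1000 up to 2000 and 5.92 from 4000 up. In footprints, coding sequences from 1000 up to 2000 bases held 37.5% ± 0.108 of the reads (SD, n = 2), those from 2000 up to 4000 bases held 24.1% ± 0.123, and those under 500 bases held 9.04% ± 0.0965.

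**Figure D4:**
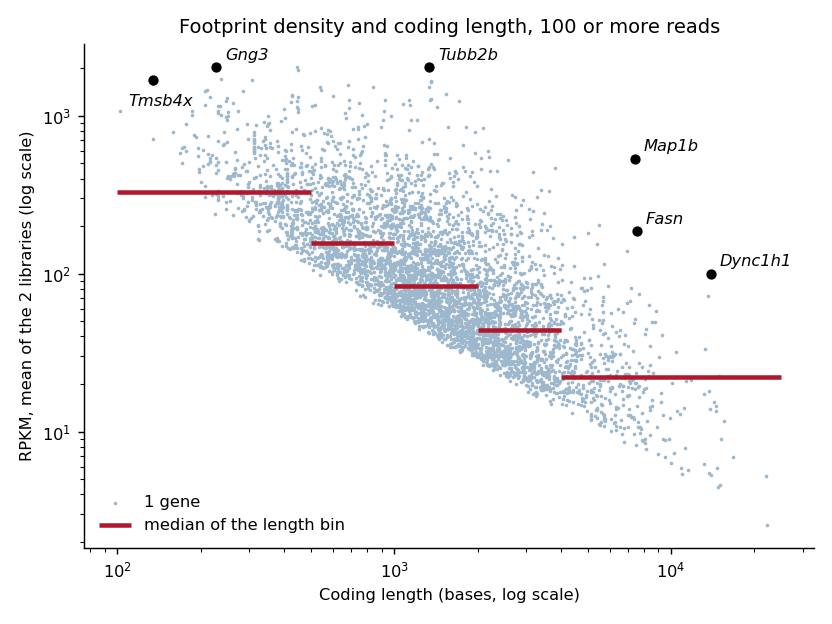
Mean RPKM of the 2 polysome libraries (log scale) against coding length in bases (log scale) for the 4595 genes with at least 100 reads in each library, with named messages in black and the median of each length bin as a red bar. The lower edge of the cloud follows the 100-read minimum, and the highest messages, near 2000 RPKM, occur at coding lengths from 228 bases (Gng3) to 1338 bases (Tubb2b).

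Among genes with at least 100 reads, the untranslated regions (UTRs) showed little relation to density once coding length was held in bins. Over the genes with at least 100 reads and an annotated UTR, rho was -0.10 for the 5′ UTR (4470 genes) and -0.17 for the 3′ UTR (4519 genes). Within the 5 bins of coding length it ran from 0.022 to 0.127 for the 5′ UTR and from -0.035 to 0.051 for the 3′ UTR. With any read the signs turned, to 0.067 and 0.158, and over all coding genes with an annotated UTR rho was 0.197 and 0.327. Those wider sets were not split by coding length. Messages with long 3′ UTRs were the more often measured: 2586 of the 2616 genes with a 3′ UTR of at least 2500 bases had a read, with a median of 24.2 RPKM over all of them, against 1.16 RPKM for the 5344 genes with an annotated 3′ UTR under 300 bases. Among genes with 100 or more reads the order was opposite, 72.0 RPKM against 136 RPKM. These are correlations across genes of 2 libraries, and genes are not replicates.

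Weighted by its footprints, the typical message on polysomes was longer than the typical annotated gene. The median coding length was 1143 bases over genes, 1431 and 1437 bases over reads, and 798 and 807 bases over density. The read-weighted median was 182 bases for the 5′ UTR in both libraries, against 130 over genes, and 1057 and 1061 bases for the 3′ UTR, against 586 over genes. Genes without an annotated UTR count as 0 bases in these medians. They were 11.7% of genes with 3.03% of reads for the 5′ UTR, and 11.1% with 2.13% for the 3′ UTR. The transcript kept for a gene was the one with the most polysome reads, which can favour isoforms with longer UTRs. Genes without reads were represented by their longest coding sequence. The parts of missing annotation and of this choice in the length differences were not tested. Transcripts with the same coding length and at least 500 more bases of UTR offered a check of where the reads lie. In 294 such pairs within a gene, the transcript that was longer by a median of 1.64 times had a median of 1.08 times the reads (interquartile range 1.01 to 1.20).

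Both polysome libraries gave nearly the same densities, with Pearson's r = 0.995 and Spearman's rho = 0.994 of log2 RPKM across the 4595 genes, which share annotation, length and protocol. The SD of the log2 ratio between libraries was 0.15, and counting error alone would give 0.14. For the 120 genes with at least 1000 reads in replicate 1, where counting error would give 0.05, it was 0.09. No gene was over 1.5 times higher in replicate 1, and 5 were in replicate 2.

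The densest messages were lower in replicate 2. All 20 had a higher RPKM in replicate 1, at a median ratio of replicate 2 to replicate 1 of 0.891, and the ratio rose towards 1 with falling density. It was 0.937 for ranks 21 to 100, 0.958 for the ranks after these up to 500, 0.970 from there up to 1000 and 0.997 from there up to 2000. Ranked on replicate 2 alone, the 20 densest had a median ratio of 0.903, and ranked on replicate 1 alone 0.879. The shares of tubulins (2 of 13 genes higher in replicate 2, median log2 ratio -0.19) and ribosomal proteins (10 of 67, median -0.15) moved with this pattern. Over all 4595 genes, 2461 were higher in replicate 1.

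Among genes with at least 200 reads in replicate 1, those furthest apart between the libraries, named here after their values were seen, included genes of matrix and blood. The collagen gene Col1a1 had 67.9 RPKM in replicate 1 and 108 RPKM in replicate 2, a ratio of 1.59 (95% Poisson interval 1.43 to 1.77), and Nid1, a basement membrane protein, 55.2 and 76.8 RPKM (1.39, 1.22 to 1.59). Globins were higher in replicate 2 as well, with Hba-a1 at 1144 and 1582 RPKM. In the lists, 17 of the 20 extracellular matrix genes with at least 100 reads were higher in replicate 2 (median log2 ratio 0.19). So were 4 of 5 oligodendrocyte lineage genes (0.30) and 4 of 4 blood genes (0.44), which are globins that may share reads. Over all 4595 genes the median was -0.01, and 2461 were higher in replicate 1. Higher in replicate 1 were Eif2s3x, an initiation factor subunit, at 152 and 109 RPKM, the neuronal transcription factor Bhlhe22 (293 and 227 RPKM) and the ribosomal stalk protein Rplp0 (206 and 157 RPKM). So were the mitochondrial genes mt-Atp8 (704 and 511 RPKM) and mt-Atp6 (283 and 210 RPKM). Of the 13 mitochondrially encoded genes, however, 5 were higher in replicate 2, among them mt-Nd5 (813 and 889 RPKM), and their median log2 ratio was -0.07. With 1 library on each side, these ratios have no replicate check.

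**Figure D5:**
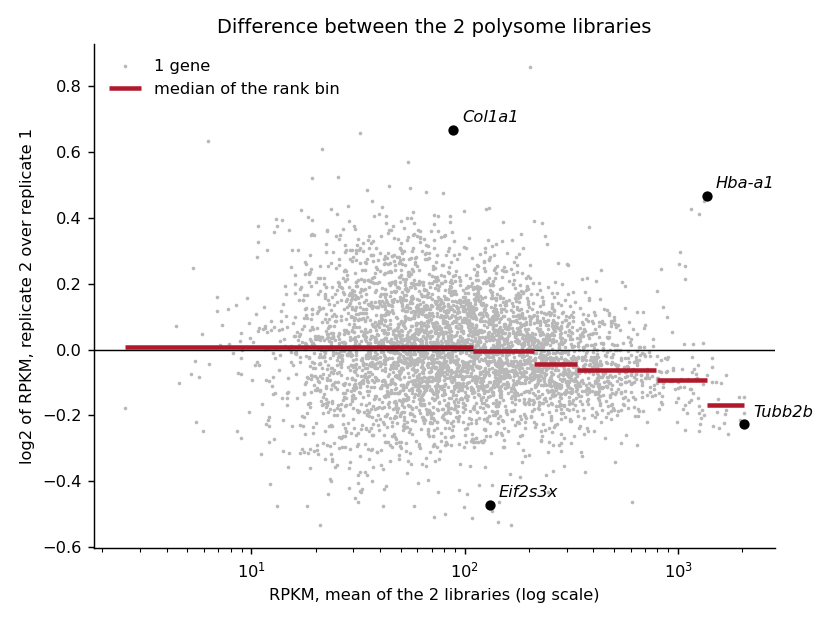
log2 ratio of RPKM, replicate 2 over replicate 1, against mean RPKM (log scale) for the 4595 genes with at least 100 reads in each polysome library. Points at high density lie mostly below 0 (median ratio 0.891 for the 20 densest), and Col1a1 lies above it at a ratio of 1.59; red bars are medians of rank bins.

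RiboLace libraries of the same genotype served to place the polysome composition, with the edgeR quasi-likelihood test over 10776 genes. Of these, 0.418% were called higher in polysomes and 1.35% lower at an adjusted p under 0.05, and the median log2 difference over all genes was 0.29. The messages densest on polysomes stood out the other way: in reads per library, ranks 1 to 20 held 2.39% and 2.11% of polysome reads against 6.06% and 6.17% of RiboLace reads, and ranks 21 to 100 held 5.22% and 4.96% against 9.62% and 9.54%. After rank 1000, up to rank 2000, the polysome libraries had the larger share, 17.6% and 17.5% against 14.7% and 14.4%. Of the 20 densest, which the polysome values chose, 17 were called lower in polysomes by edgeR, and their median log2 difference was -1.22. Leaving out RiboLace replicate 1 reduced the 17 to 9. Tuba1a was furthest apart, with 2269 ± 278 normalised counts (CPM) in polysomes and 10223 ± 934 in RiboLace (SD, n = 2 each). Its log2 difference was -2.17 with an SE of 0.14 (edgeR adjusted p = 2.02e-53), and it was not called by limma-voom (adjusted p = 0.35). Gng3 (log2 difference -0.21, edgeR adjusted p = 0.795), Mt3 (-0.75, 0.121) and Fxyd6 (-0.15, 0.894) were not called.

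Gene lists differed in how many of their members stood apart. In the tubulin list edgeR called 8 of 15 tested genes lower in polysomes (median log2 difference -1.43), in the histone list 29 of 74 (-0.97), in the growth cone list 9 of 30 (-0.51) and in the blood list 4 of 5 (-1.41), each against 1.35% of all genes. Near-identical genes in the tubulin, histone and blood lists may share reads, so their calls may not be separate from each other. Without RiboLace replicate 1 or replicate 2, the tubulin count was 8 and the blood count 4 in both cases, the histone count fell to 4 or 12 and the growth cone count to 2 or 7. Without polysome replicate 1 or replicate 2 the histone count was 11. Ribosomal protein genes had 0 of 86 edgeR calls in either direction and a median of -0.19, with 9 lower and 0 higher at an unadjusted p under 0.05 and 1 lower with DESeq2. Their polysome shares of 1.02% and 0.917% compare with 0.957% to 1.22% in the other 6 libraries. Receptors and channels had 0 of 42 edgeR calls and a median of 0.29, the same as all genes, with 5 higher and 1 lower at an unadjusted p under 0.05 and 0 called with DESeq2. Members of the 21 function lists that edgeR called higher in polysomes included the initiation factor Eif4b, the chaperone Pdia4 and the guidance receptor Robo1. These calls rest on thin RiboLace libraries: limma-voom called 0 genes in either direction (668 higher and 561 lower at an unadjusted p under 0.05), and leaving out RiboLace replicate 1 or replicate 2 reduced the genes lower in polysomes from 146 to 49 or 70, and the genes higher from 45 to 4 or 2.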

How the data were processed

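Ribosome footprints of whole mouse brain were analysed from the deposited table of raw counts per Ensembl transcript, with the lengths of coding sequence and UTRs that the authors deposited beside them (other columns of the same table). Reads were trimmed with Trimmomatic 0.36, aligned with Bowtie2 2.2.6 and handled with SAMtools on GRCm38.p4, per the submitters' processing notes; how reads with several matching transcripts were treated is not stated there. One protein-coding transcript per gene was kept, the one with the highest library-scaled sum of both polysome libraries, and RPKM was computed here from its reads, coding length and the total of coding reads. No size factor other than that total was used for RPKM.

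Polysome and RiboLace libraries were compared with edgeR 4.0.16 (quasi-likelihood, robust, TMM, filterByExpr with a minimum count of 10, two-sided, Benjamini-Hochberg adjustment over all genes tested, threshold 0.05), limma 3.58.1 (voom) and DESeq2 1.42.0 in R 4.3.3, the last 2 as alternatives; other steps used Python 3.11.15 with pandas 2.3.3 and figures matplotlib 3.10.9. The procedure was tested on simulated data of 10372 genes for this comparison: 12 of 100 simulated 2-fold differences and 50 of 100 simulated 4-fold differences were called by edgeR, with 4 false calls. The simulation gave every gene the same dispersion and no other difference between the groups. Its false calls therefore do not measure the error in the real comparison. Named genes were Smn1, the 20 densest and the 10 with most reads among genes with at least 100 reads in each polysome library, passing over predicted genes, and up to 4 per class (the 3 densest and, where a class spans over 10-fold, the lowest), plus markers. The densest and lowest of a class were also taken among genes with at least 100 reads in each polysome library. The members and gene lists were chosen with earlier results of these data known. Whether the labelled biological replicates are single animals is not given, so an SD measures the spread between these libraries, and an n of 2 limits its precision. The edgeR p-values rest on estimates of spread shared across genes (common dispersion 0.00218). They do not measure the spread of 2 libraries for each gene on its own. Alternatives covered transcript choice, length, scaling, read minimum and leaving out each library. Sequences were not used here, and some genes are not reported here.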

Additional observations from a re-analysis of the deposited data

How the results depend on the processing

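The ratio of the 1st to the 100th density was 2.57, and it was 4.36 with whole transcript length, 3.17 with at least 500 reads, and 2.52 to 2.74 with 1 library left out. With whole transcript length 7 of the 20 densest messages remained among the 20 densest. Summing counts over transcripts gave shares of 1.12% for tubulins, 2.32% for growth cone genes and 1.37% for nuclear oxidative phosphorylation, and counting identical genes once gave 1.59% for the last. The Spearman correlation of density with coding length was -0.769 for the longest transcript, -0.540 with whole length, -0.586 with at least 20 reads, -0.838 with at least 500 and -0.228 with any read, and -0.743 to -0.771 with 1 library left out. With any read, a filter chosen after seeing the data, the correlation turned to 0.067 for the 5′ UTR and 0.158 for the 3′ UTR. Genes higher in polysomes than in RiboLace numbered 45, and 5 with DESeq2, 0 with limma-voom and 2 to 64 with 1 library left out, where the lone library is assumed to vary like the other pair. Genes lower numbered 146, and 224 with a minimum count of 50, 293 with DESeq2, 0 with limma-voom and 49 to 107 with 1 library left out. The cause was not tested, apart from fewer samples or genes where an alternative removes them. The replicate numbers do not pair the libraries by label, and same-numbered libraries deviated together with a correlation of 0.023 over 5387 genes. A replicate block gave 25 genes higher and 128 lower. The depth of the RiboLace libraries, 37816 and 46223 coding reads, limits the comparison.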

Other observations

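Genes with no protein-coding transcript held 10.2% and 9.94% of the reads in polysomes, where 1 transcript was kept for each gene, and 29.8% to 35.7% in the other 6 libraries. Processed pseudogenes, copies that can share the sequence of expressed genes, made up most of the polysome part, at 7.22% and 7.05%, within the range of the other libraries (4.79% to 9.65%). Structured RNAs made up little of it. Small nuclear RNAs held 0.394% and 0.312% in polysomes against 7.05% to 13.2% elsewhere, small nucleolar RNAs 0.192% and 0.187% against 2.00% to 5.10%, and mitochondrial ribosomal RNAs 0.127% and 0.121% against 2.89% to 5.87%. No test was run on these shares. Long intergenic RNAs held 0.259% and 0.272%. The long intergenic RNA 6330403K07Rik had 628 and 767 reads in polysomes and 16 and 13 in the shallower RiboLace libraries, which is 374 and 332 against 346 and 344 when scaled to 1000000 coding reads. The imprinted RNA Peg13 had 574 and 771 reads in polysomes and 15 and 9 in RiboLace, or 342 and 333 against 325 and 238 on the same scale. Both were picked after their counts were seen.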
